A study of Mus musculus with 16 samples.

Results

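The 428 regions described here were chosen for strong accessibility peaks in most libraries of differentiating C2C12iMyoD1 myoblasts and in few of proliferating ones. Their higher rank among accessible chromatin regions in differentiating cells thus follows from the choice. C2C12 is an established mouse myoblast line that stops dividing and fuses into myotubes when serum is withdrawn, and C2C12iMyoD1 is a polyclonal population of it in which every group carried integrated V5-Halo-MyoD1 transgenes, driven by the doxycycline-responsive TRE3GS promoter, beside the endogenous Myod1 gene. The 4 groups were growth medium with vehicle (GM no dox), growth medium with 24 h of doxycycline (GM +dox), 24 h of serum withdrawal with vehicle (DM no dox) and 24 h of serum withdrawal with doxycycline (DM +dox). Each group had 4 ATAC-seq libraries, and replicate 1 of both DM groups was left out by the study as a quality outlier, so 14 libraries were used here. Wells for GM were seeded with 75000 cells and wells for DM with 300000, so that seeding density and medium cannot be told apart in what follows. The induced transgene is expressed in a part of the nuclei only, and an ATAC-seq library of many cells cannot tell a larger share of open cells from wider opening in each cell.

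The regions were chosen by the peak lists themselves. The strongest peaks of each of the 14 libraries by −log10 p-value, as many from each as the shortest list holds, were merged into 26213 union regions, and a region was called gained where at least 5 of the 6 DM libraries and at most 2 of the 8 GM libraries had one of these strong peaks. This rule kept 1.63% of the union regions. Because the DM against GM contrast defined the set, its values in that contrast are given as a description without a test, and the only contrast tested is dox against no dox within DM. A mirror set, with a strong peak in at least 7 GM and at most 1 DM library, held 274 regions, and 6068 regions had a strong peak in all 14 libraries.

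ATAC-seq marks DNA that the Tn5 transposase can reach, which is mostly the nucleosome-free DNA of promoters and enhancers. MyoD1 is a basic helix-loop-helix factor that pairs with E proteins on E-boxes, the hexamers CANNTG, and in muscle cells it prefers those with GC at the centre. In myoblasts much of the distal accessible DNA also carries the AP-1 element bound by FOS and JUN dimers. When serum is withdrawn, myoblasts leave the cell cycle and enhancers of muscle genes gain activity, with MEF2 and TEAD factors acting beside the myogenic factors.

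The sequences below are given because the E-box CAGCTG had the largest difference in share, of all hexamers counted, between distal gained regions and other distal accessible DNA. They are the plus strand of GRCm38, the assembly behind mm10, read from RefSeq, 60 bases to either side of the summit of the strongest peak. Capitals mark every match to CAGCTG on either strand, to CAGGTG or its reverse CACCTG, to the AP-1 element TGANTCA, to TGCCAA or its reverse TTGGCA and to TGCAAT or its reverse ATTGCA. The first set holds 5 of the strongest of the 37 regions with a strong peak in all 6 DM and no GM library, each named after its nearest protein-coding start site.
Tnks2, chr19:36860547-36860667: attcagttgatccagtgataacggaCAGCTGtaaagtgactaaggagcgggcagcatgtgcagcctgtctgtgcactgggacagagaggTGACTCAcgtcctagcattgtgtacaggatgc
Eea1, chr10:96015916-96016036: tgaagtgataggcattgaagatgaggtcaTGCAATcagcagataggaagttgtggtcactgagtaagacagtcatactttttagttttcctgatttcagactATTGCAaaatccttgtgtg
Tenm4, chr7:96817228-96817348: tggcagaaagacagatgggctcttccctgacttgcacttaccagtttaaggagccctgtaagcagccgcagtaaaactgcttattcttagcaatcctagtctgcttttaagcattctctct
Btc, chr5:91274572-91274692: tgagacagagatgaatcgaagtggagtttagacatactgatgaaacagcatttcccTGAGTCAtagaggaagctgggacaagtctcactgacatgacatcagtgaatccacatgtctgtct
Gm10322, chr10:59564754-59564874: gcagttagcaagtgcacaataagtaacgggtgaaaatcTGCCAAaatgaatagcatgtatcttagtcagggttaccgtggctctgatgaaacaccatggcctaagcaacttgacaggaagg
The second set holds regions nearest to, or within 50 kb of, a gene of the muscle and growth lists described further on. The pair near Myc lies in introns of a non-coding transcript of the Pvt1 locus, and the Lpin2 region is also within 50 kb of Myom1.
Myc, chr15:62334401-62334521: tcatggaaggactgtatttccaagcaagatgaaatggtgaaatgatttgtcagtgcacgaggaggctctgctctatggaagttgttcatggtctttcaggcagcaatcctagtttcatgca
Tead1, chr7:112884050-112884170: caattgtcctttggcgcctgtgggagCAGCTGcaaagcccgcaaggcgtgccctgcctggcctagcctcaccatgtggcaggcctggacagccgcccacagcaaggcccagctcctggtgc
Myc, chr15:62361272-62361392: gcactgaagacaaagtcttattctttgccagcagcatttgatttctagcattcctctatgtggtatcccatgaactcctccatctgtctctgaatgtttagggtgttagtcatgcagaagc
Lpin2, chr17:71165136-71165256: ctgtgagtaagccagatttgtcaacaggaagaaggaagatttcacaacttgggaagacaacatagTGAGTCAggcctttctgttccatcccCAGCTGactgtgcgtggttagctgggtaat
Sgce, chr6:4740554-4740674: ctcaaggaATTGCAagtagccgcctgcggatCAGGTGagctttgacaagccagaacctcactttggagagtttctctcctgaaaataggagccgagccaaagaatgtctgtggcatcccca
The third set holds regions that were called for dox in DM in the fit with replicate as a block. The Prl7d1 region was lower with dox and the other 3 were higher.
Prl7d1, chr13:27730442-27730562: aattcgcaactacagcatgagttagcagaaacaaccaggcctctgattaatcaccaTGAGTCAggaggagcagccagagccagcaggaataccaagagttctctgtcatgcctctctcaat
Efna5, chr17:61589504-61589624: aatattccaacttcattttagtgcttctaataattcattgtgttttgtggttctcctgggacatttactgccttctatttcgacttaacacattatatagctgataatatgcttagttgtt
Mast2, chr4:116371822-116371942: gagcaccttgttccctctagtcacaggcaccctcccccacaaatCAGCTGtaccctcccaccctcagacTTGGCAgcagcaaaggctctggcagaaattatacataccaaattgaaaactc
Gm42372, chr7:16974168-16974288: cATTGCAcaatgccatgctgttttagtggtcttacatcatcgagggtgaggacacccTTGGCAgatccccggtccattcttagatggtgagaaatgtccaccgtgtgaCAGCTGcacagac
Among these 14 windows CAGCTG occurs in 5, and no capital stands in 4. The element thus marks a minority of single regions, and the counts over all members follow below.

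In the 8 GM libraries, 34 to 106 of the 428 regions had a strong peak. The counts were 73, 34, 54 and 78 in GM no dox replicates 1 to 4 and 71, 42, 63 and 106 in GM +dox replicates 1 to 4. In DM no dox replicates 2 to 4 they were 364, 364 and 403, and in DM +dox replicates 2 to 4 they were 347, 400 and 403. These counts are bounded by the rule. The difference between media was one of rank more than of presence. When all deposited peaks were read, with up to 58587 peaks in a list, 424 of the 428 regions had a peak of any strength in at least 2 GM libraries and 253 in at least 7. The shortest list, that of GM no dox replicate 1, covered 73 of the regions, and the other 7 GM lists covered 252 to 424. Only 1 gained region had no deposited peak in any GM library, and 3 had one in a single GM library.

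**Figure D1:**
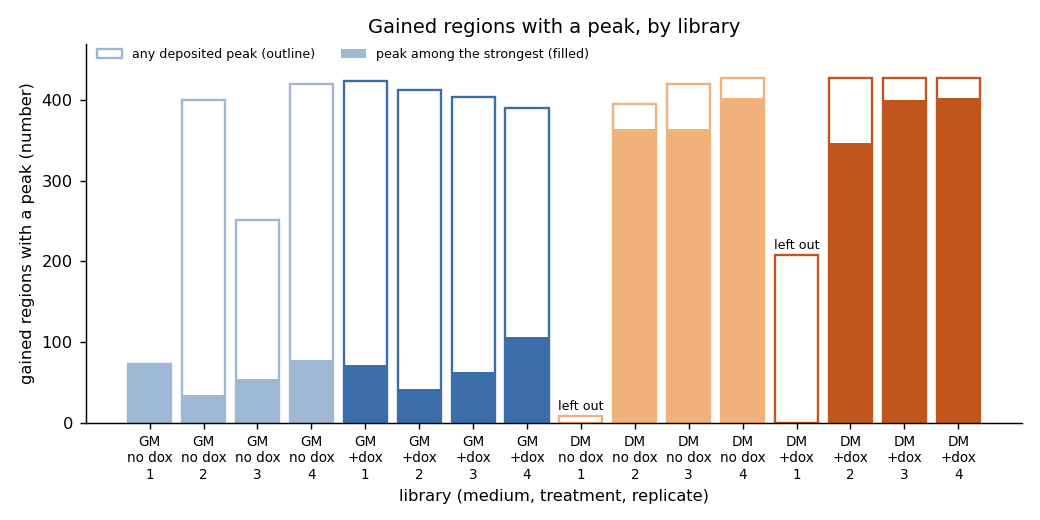
Number of the 428 gained regions with a peak in each library (y axis), by medium, treatment and replicate (x axis). Filled bars count strong peaks and outlines count any deposited peak. Filled bars lie between 34 and 106 in GM and between 347 and 403 in DM by the choice of regions, while the outlines reach 424 in GM, and the left-out DM replicates 1 have an outline only, at 8 and 208.

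Within each library all union regions were ranked by −log10 p, with regions lacking a deposited peak tied at the bottom. The median gained region stood at percentile 22.4 to 34.8 in the 8 GM libraries and at 57.4 to 60.5 in the 6 DM libraries. The mirror set ran the other way, at 55.1 to 72.2 in GM and 21.1 to 33.3 in DM. The median fold enrichment of gained regions, the ratio of the fragment pileup at the summit to the local background, was 5.08 to 12.1 in GM and 8.44 to 17.5 in DM. The ranks use the −log10 p by which the rule and its mirror chose the regions, so their separation between media follows from that choice. The ranges of fold enrichment overlapped, for a cause that was not tested. Fold enrichment moves with the depth and background of a library. Over all union regions its median was 8.63 to 12.4 in DM no dox, 13.4 to 16.0 in DM +dox, 6.08 to 12.9 in GM no dox and 10.5 to 14.3 in GM +dox, so deposited values of a single region that are higher with dox are read only after normalization. The gained regions were thus in the middle of the DM ranking and did not belong to its strongest peaks.

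**Figure D2:**
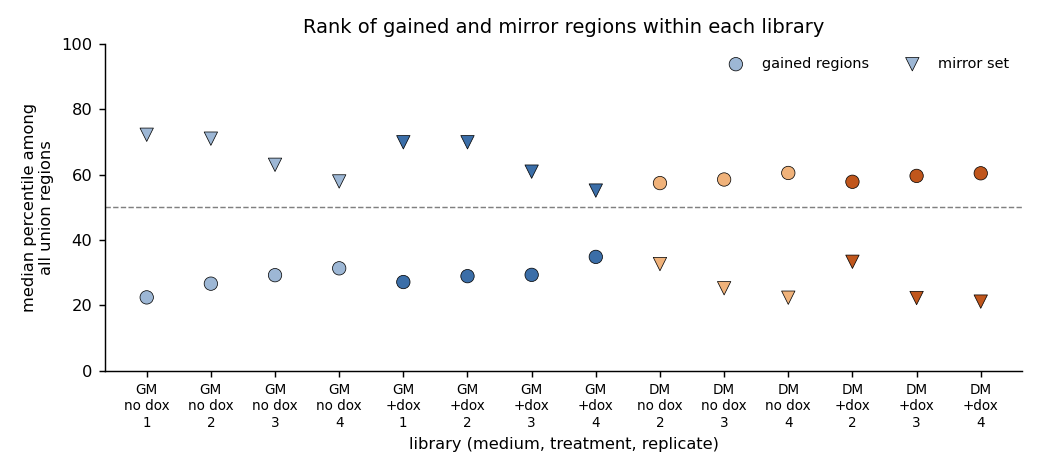
Median percentile (y axis) of gained regions (circles) and of the mirror set (triangles) among all union regions within each of the 14 libraries (x axis). Circles lie between 22.4 and 34.8 in GM and between 57.4 and 60.5 in DM, apart by the choice of regions. The dashed line is percentile 50.

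Of the 428 regions, 141 had a strong peak in all 6 DM libraries and 287 in 5. Where 1 DM library lacked it, this was DM +dox replicate 2 at 81 regions, DM no dox replicates 2 and 3 at 64 each, DM +dox replicate 3 at 28, and DM no dox replicate 4 and DM +dox replicate 4 at 25 each. In GM, 103 regions had no strong peak, 129 had 1 and 196 had 2. The set had no sharp edge. Members just inside the rule, with 5 DM and 2 GM libraries (139 regions), had a median mean percentile of 55.5 in DM and 35.0 in GM. Regions just outside it with 4 DM libraries (523) had 48.0 and 29.2, and those just outside it with 3 GM libraries (244) had 58.1 and 40. Leaving out replicate 2 of DM no dox raised the number of gained regions to 656, and leaving out replicate 2 of DM +dox to 673, where 4 of the 5 DM libraries left had to carry a strong peak.

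Both left-out DM libraries were not used by the rule. DM +dox replicate 1, with a list of 14236 peaks and the lowest background coverage, 0.167 fragments per base, had a deposited peak at 208 of the 428 gained regions. This was 48.6% (Wilson 95% interval 43.9 to 53.3, counting error only), beside 44.9% of all union regions and 33.6% of the mirror set. DM no dox replicate 1 had a list of 1287 peaks, of which 8 gained regions held one (1.87%, interval 0.95 to 3.64), beside 4.77% of all union regions and 0% of the mirror set. The share of all union regions in DM +dox replicate 1 lay inside the interval of the gained regions, and in DM no dox replicate 1 the gained regions were covered less often than all union regions.

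Most gained regions lay away from promoters. The summit was more than 1 kb from every start site annotated in GENCODE release M21 at 300 of 428 regions, 70.1% (interval 65.6 to 74.2), against 60.5% of all union regions and 81.0% of the mirror set. Introns held 39.5% of them and intergenic DNA 27.1%, and 8 regions lay in untranslated, 4 in coding and 3 in non-coding exons. The classes of 1 to 10 kb, 10 to 50 kb and over 50 kb from a start site held 31.5%, 29.9% and 8.64%, each somewhat more than the 27.8%, 27% and 5.74% of all union regions. The distal share depended on single libraries. Leaving out replicate 4 of GM no dox gave 61.5%, replicate 4 of GM +dox 62.2% and replicate 2 of DM +dox 62.4%, close to the 60.5%, 60.5% and 60.2% of all union regions in the same settings.

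**Figure D3:**
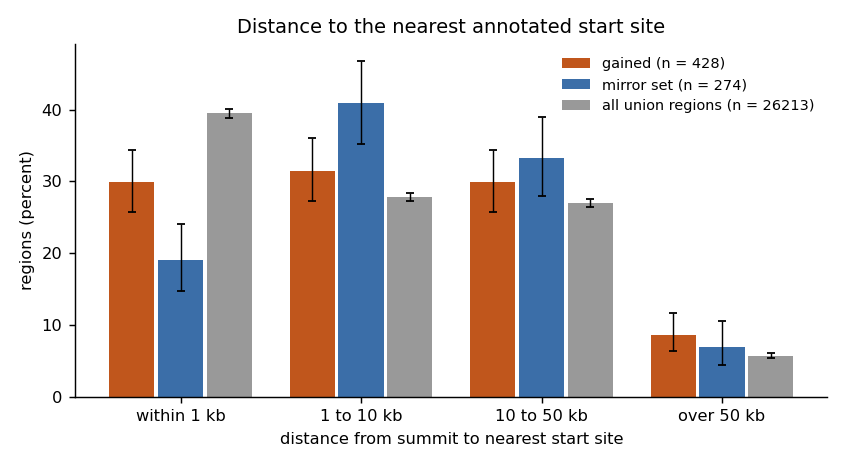
Share of regions (y axis, percent) by distance from the summit to the nearest annotated start site (x axis), for gained regions, the mirror set and all union regions, with Wilson 95% intervals. Gained regions within 1 kb made up 29.9%, between the 19.0% of the mirror set and the 39.5% of all union regions.

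Gained regions had the width and base composition of other accessible DNA. Their median width was 616 bp against 620 bp over all union regions, and their median GC content was 53.0% against 54.2%. Among regions over 1 kb from a start site the GC content was 49.8% against 50.2%, so the motif shares below compare sets of nearly equal composition. Repeat-masked bases made up 7.02% of the windows against 7.12%. By chromosome, chromosome 11 held the most gained regions, 42 of 2099 union regions (2.00%), chromosome X had the highest share, 14 of 469 (2.99%), and chromosome 8 the lowest, 14 of 1571 (0.891%).

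The E-box CAGCTG, the form with GC at its centre, lay within 100 bp of the summit at 130 of the 428 gained regions. This was 30.4% (Wilson interval 26.2 to 34.9), against 18.7% of all union regions and 13.5% of the mirror set. Among regions over 1 kb from a start site the shares were 36.7% of gained (110 of 300, interval 31.4 to 42.3), 22.8% of all and 13.5% of the mirror set. At gained regions within 1 kb of a start site the share was 15.6% (20 of 128, interval 10.3 to 22.9), and 12.5% over all union regions there. The distal gained regions therefore carried this E-box more often than other distal accessible DNA, by 13.9 percentage points, and in gained promoters the interval included the share of all promoters. Motif shares are descriptions of letters, with no test of enrichment, and a match is not a bound site.

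CAGGTG, the E-box with GG or CC at its centre, was found at 15.7% of distal gained regions, 8.71% of all distal regions and 4.95% of the distal mirror set. CATCTG stood at 24.7%, 20.9% and 14%, CACATG at 20.7%, 16.3% and 13.5%, and CATATG at 5.33%, 3.28% and 1.35%. CACGTG, the form bound by MYC and MAX and related dimers, was at 3.33%, 3.38% and 1.35%. CAACTG was at 12.0%, 11.7% and 16.2%. The difference between gained and other distal regions was thus largest in points for the form with GC at the centre, the next was the GG form, and there was next to none for CACGTG and CAACTG. Any E-box was present at 84.0% of distal gained and 71.7% of all distal regions.

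At least 2 copies of CAGCTG lay in 7.67% of distal gained windows and 3.38% of all distal windows. Where a gained region had a copy, the nearest one was a median 36.5 bp from the summit. It was within 25 bp at 56 of 130 gained regions (43.1%, interval 34.9 to 51.7), against 31.7% over all union regions with a copy. In the mirror set this share was 24.3% of 37 regions (interval 13.4 to 40.1). Among distal regions with a copy it was 41.8% of gained (interval 33 to 51.2) and 33% of all, at the lower edge of that interval. The base on the 5′ side of CAGCTG, with both strands read, was A in 31% of the copies in distal gained regions and in 27.2% of those in all distal regions, and G in 26.9% and 29.9%.

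The AP-1 element did not set the gained regions apart. TGANTCA was present at 47.0% of distal gained regions (interval 41.4 to 52.6), 49.6% of all distal regions and 52.3% of the distal mirror set. CAGCTG without TGANTCA was found at 21.3% of distal gained regions against 12.5% of all, and both together at 15.3% against 10.3%. TGANTCA without CAGCTG was found at 31.7% against 39.4%, and at 45.5% of the distal mirror set.

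The shares of distal gained regions with a TEAD, RUNX, MEF2 or CArG element were below those of all distal regions, and for RUNX, MEF2 and CArG the interval of the gained share included the share of all. CATTCC, the core that TEAD factors bind, was at 15.3% of distal gained regions (interval 11.7 to 19.8) and 21.9% of all distal regions. TGTGGT, the RUNX core, was at 27% and 32.0%, and at 44.1% of the distal mirror set. A MEF2 consensus was found at 2 of 300 distal gained regions (0.667%, interval 0.183 to 2.40), against 1.93% of all distal regions and 3.6% of the distal mirror set. A CArG box, the element of serum response factor, was also found at 2 of 300, against 1.28% of all. The GC box GGGCGG marked promoters in every set and was at 6.33% of distal gained and 8.15% of all distal regions. The palindromic element of NFI factors, TTGGC and GCCAA separated by 5 bases, was found at 1 of 428 gained regions (0.234%) and at 12 of all 26213 (0.0458%).

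When all 2080 hexamers were counted with strands pooled, CAGCTG had the largest difference between distal gained and all distal regions. The next ones that do not overlap it included TGCCAA, which holds the core of the site of NFI factors, at 30.3% (interval 25.4 to 35.8) against 20.1%, and TGCAAT, which holds the core of the site of C/EBP factors, at 15% (11.4 to 19.5) against 7.68%. In the distal mirror set they were at 14.9% and 4.05%. CATTCC was the second lowest of all, at 6.56 points below. TGCCAA and TGCAAT were chosen after their values in this count were seen. CAGCTG and CATTCC were listed before it, but with earlier results of these data known.

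**Figure D4:**
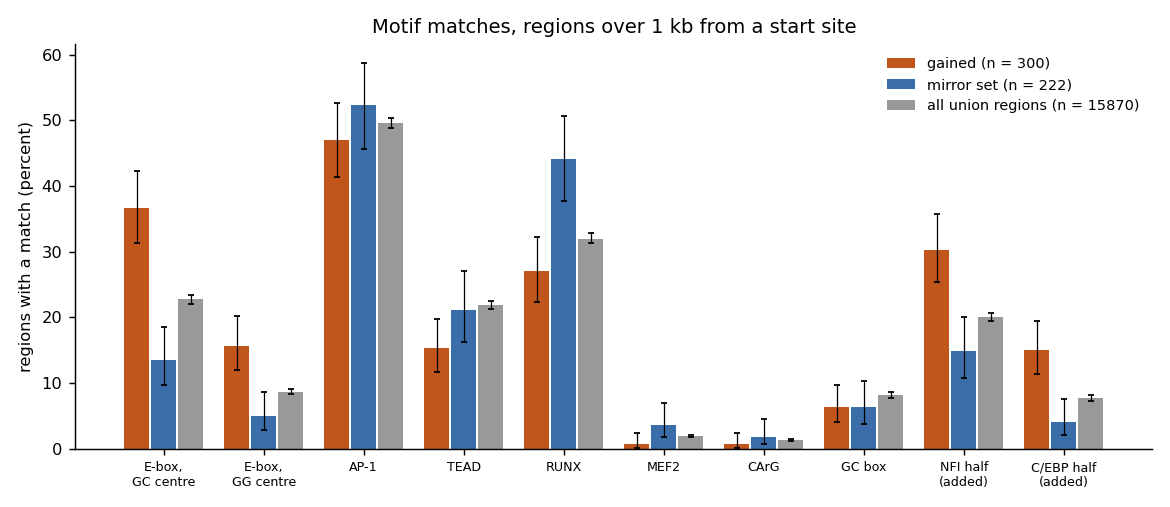
Share of regions over 1 kb from a start site (y axis, percent) with a motif match within 100 bp of the summit, for gained regions, the mirror set and all union regions, with Wilson 95% intervals. The E-box with GC at its centre is at 36.7% of gained regions against 13.5% of the mirror set and 22.8% of all, AP-1 is at 47.0% to 52.3% in the 3 sets, and the bars marked as added are hexamers chosen after their values were seen.

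The 37 regions with a strong peak in all 6 DM and no GM library stood at a median percentile of 65.9 in DM and 16.8 in GM. CAGCTG was at 43.2% of them and 86.5% were over 1 kb from a start site. The strongest by fold enrichment in DM lay in an untranslated exon of Ptrh2, a mitochondrial peptidyl-tRNA hydrolase (chr11:86691288-86692100), with values of 12.5, 12.6 and 20.0 in DM no dox and 20.6, 21.1 and 20.5 in DM +dox. In GM it had deposited peaks in 4 of 8 libraries, at 7.46 to 10.1. An intron of Tnks2, a tankyrase that attaches poly-ADP-ribose to proteins, held the next (chr19:36860297-36860798), 1.51 kb downstream of the start site, at 14.6, 13.6 and 15.9 in DM no dox and 24.1, 20.7 and 16.3 in DM +dox. It had peaks of 5.52 to 13.6 in 4 GM libraries. An intron of Eea1, which tethers early endosomes, had 11.1, 14.3 and 20.7 in DM no dox and 19.2, 18.6 and 18.1 in DM +dox (chr10:96015614-96016308). In GM this region had 7 deposited peaks of 4.02 to 14.1, so here the highest GM value lay above the lowest DM value.

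The other 7 of the 10 strongest lay 0.197 to 118 kb from any start site. The region in Tenm4, which encodes a teneurin of the cell surface, had 10.5 to 17.7 in DM no dox and 17.0 to 19.2 in DM +dox (chr7:96817046-96817639). One region lay 102 kb downstream of the start of Btc, the EGF receptor ligand betacellulin (chr5:91274041-91274845), and had 11.3 to 17.2 in DM no dox and 17.6 to 23.0 in DM +dox. An intron of Mcu, the mitochondrial calcium uniporter, held a region whose nearest coding start site is that of Gm10322 (chr10:59564425-59564926), at 9.87 to 19.9 and 16.6 to 18.7. The rest lay near Cln8, in an intron of Ank, a pyrophosphate transporter, far from any coding start site beyond Olfm4, and 343 kb upstream of Klf4, a zinc finger transcription factor. As at Eea1, the highest GM value exceeded the lowest DM value at Gm10322 (16.1 against 9.87), Olfm4 (18.8 against 10.3) and Klf4 (11.6 against 8.82). At Btc both were 11.3, and at Tenm4, Cln8 and Ank every GM value lay below the DM values. Here and for the other named regions, GM and DM values are as deposited and were not normalized between libraries of unlike background coverage. None of the 10 had a nearest gene among the muscle lists. After normalization the dox differences of these 10 in DM ran from −0.20 to 0.23 on the log2 scale, and none was called.

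The gained regions nearest to absence in GM were 8 with deposited peaks in at most 2 GM libraries. The 1 region without any GM peak lay in an intron of Alk, a receptor tyrosine kinase (chr17:71994168-71994497), with 7.43, 8.88 and 13.9 in DM no dox and 12.9, 14.8 and 14.3 in DM +dox. A region 72.2 kb upstream of Gli2, a transcription factor of Hedgehog signalling (chr1:119125530-119126009), had 9.05, 14.5 and 18.1 in DM no dox, 16.2, 15.6 and 15.9 in DM +dox and a single GM peak of 7.20 in GM +dox replicate 1. All 3 members with a single GM peak had it in that library, which has the longest list. A region 98.7 kb upstream of Bod1 had 9.28, 5.70 and 17.6 in DM no dox and 21.2, 15.8 and 21.6 in DM +dox.

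The gained regions had 412 different nearest coding genes, and 13 genes had 2 or more. Those with 3 were Clip4, Farp1 and Myc. The Clip4 regions all lay in introns of Alk, 138 to 302 kb downstream of the Clip4 start site, and the first of them is the region without a GM peak. Farp1 had its 3 regions in its own introns, 2.96, 10.3 and 63.8 kb downstream of the start site. All 3 held CAGCTG, and DM values were 5.44 to 15.2 in no dox and 13.9 to 21.7 in +dox, beside GM peaks of 4.84 to 17.1. Myc, the proliferation factor, had 3 regions at 347, 374 and 582 kb downstream, in introns of non-coding transcripts. The first (chr15:62334141-62334865) had 13.0, 15.5 and 17.3 in DM no dox and 22.0, 18.1 and 17.0 in DM +dox, and in GM it had peaks in 6 libraries at 4.41 to 16.8. Normalized log2 values in DM were 4.11, 4.33 and 4.06 without dox and 4.02, 3.99 and 3.91 with it, a difference of −0.19 ± 0.13 (limma, adjusted p = 0.648) with arms that did not overlap. None of the 3 Myc regions held CAGCTG, and the first and the last held TGANTCA. At the first and second, the highest GM value lay within the DM range.

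The genes of 13 lists on muscle, adhesion and growth control were then read, 323 genes in all. Of these, 19 (5.88%) had a gained region within 50 kb of a start site, beside 3.66% of all 21911 coding genes. The mirror set gave 20 (6.19%) and 2.35%. Any union region lay within 50 kb of 88.2% of the list genes and 72.6% of all coding genes, so that list genes were richer in accessible regions of every kind, and nothing particular to the lists is read from the counts. By list, cell cycle exit had 0 of 19, the Notch pathway 0 of 16 and TGF-beta, BMP and myostatin 0 of 23. Sarcomere and myofibril assembly had 2 of 64, and the myogenic regulators had 1 of 26, so the start sites of Myod1 and Myog had no gained region within 50 kb.

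Among transcription factors, Tead1, which binds the M-CAT element of muscle promoters, had 2 gained regions in its introns, 1.38 kb and 44.5 kb downstream of the start site, and both held CAGCTG. The first (chr7:112760490-112761104) had 14.1, 7.62 and 13.8 in DM no dox and 18.8, 13.1 and 14.9 in DM +dox, beside peaks of 7.89 to 13.3 in 6 GM libraries. A region 78.2 kb downstream of the start of Mef2c, a MADS-box factor of muscle differentiation, had 8.21, 7.29 and 9.50 in DM no dox and 10.2, 12.4 and 9.50 in DM +dox (chr13:83730535-83731495), beside 6.53 to 9.11 in the 7 GM libraries with a peak. Snai2, a zinc finger repressor of myoblasts, had a region 1.81 kb upstream (chr16:14703866-14704172), with 6.0, 8.05 and 9.75 in DM no dox, 12.0, 10.4 and 10 in DM +dox, and GM peaks in 2 libraries at 5.47 and 6.60. The latter was among the members with fewest GM peaks. A promoter region of Iqcn lay 4.02 kb from Jund, an AP-1 subunit.

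Of the growth factor axis, the promoter of Igfbp4, which encodes a secreted binding protein of insulin-like growth factors, was gained (chr11:99047112-99048000). It had 6.75, 9.17 and 12.2 in DM no dox, 17.5, 14.3 and 16.6 in DM +dox, and 5.12 to 10.1 in the 5 GM libraries with a peak. After normalization the difference between the DM arms was 0.27 ± 0.19 (SE; limma, adjusted p = 0.669). Gained regions also lay 22.0 kb upstream of Igf2r, which takes up IGF2, and 567 kb upstream of Igfbp3.

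Of the genes for muscle structure and excitation, Sgce, the epsilon-sarcoglycan, was gained at its promoter (chr6:4740172-4740914), with 11.9, 8.79 and 14.9 in DM no dox and 21.4, 18.8 and 20.6 in DM +dox. Its GM peaks of 6.21 to 18.7, in 7 libraries, overlapped the DM values. One region (chr1:87175872-87176419) lay 7.12 kb from its nearest coding start site, that of Prss56. The region was also within 50 kb of both Chrnd and Chrng, the delta and gamma subunits of the acetylcholine receptor. It held CAGGTG and had 8.11, 7.59 and 10.3 in DM no dox and 11.1, 8.56 and 8.67 in DM +dox, beside 5.05 to 10.6 in the 8 GM libraries. After normalization it was lower with dox in DM, by −0.40 ± 0.21 on the log2 scale (SE; limma, adjusted p = 0.572), with arms that did not overlap. Regions 23.2 kb from Cacna1s, the voltage sensor of the sarcolemma, and 5.78 kb from Stac3, its adaptor, had DM values of 7.64 to 13.1 and 6.87 to 14.6, beside 5.14 to 9.43 and 5.48 to 11.1 in the 7 GM libraries with a peak.

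The promoter of Itgav, the alpha V integrin, had 8.03, 8.13 and 12.0 in DM no dox and 14.6, 11.3 and 13.0 in DM +dox (chr2:83724003-83725211), beside 7.42 to 10.2 in the 7 GM libraries with a peak. For fusion, an intron of Elmo1, which activates Rac with DOCK proteins, held a region with CAGCTG (chr13:20133679-20134494), at 12.2, 10 and 13.7 in DM no dox and 19.5, 16.2 and 14.7 in DM +dox. Its GM peaks of 6.0 to 18.1, in 7 libraries, overlapped these values. Another region, in an intron of Arhgap33, lay 39.8 kb from Nphs1, which encodes nephrin, and had 9.17, 9.59 and 18.6 in DM no dox and 21.8, 16.1 and 15.6 in DM +dox. Its 4 GM peaks, of 4.36 to 8.06, were all in GM +dox. Other list genes within 50 kb were Mb (18.5 kb), Tnnt1 (6.25 kb), Myom1 (44.3 kb), Ckb (40.9 kb) and Cadm4 (30.6 kb). After normalization the DM dox differences of the tested regions near list genes ran from −0.40 to 0.30 on the log2 scale, and none was called. The more distant Tead1 region and the Iqcn region each lacked a peak in a DM no dox library and were not tested. At Tnnt1, Ckb and Cadm4 the gained region was the promoter of another gene, namely Ppp1r12c, Bag5 and Irgq.

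Gained regions within 1 kb of a coding start site numbered 118. The 5 strongest by mean over the DM libraries with a peak were the promoters of Exoc7, an exocyst subunit, Cd80, a co-stimulatory ligand of T cells, Atf7ip, a cofactor of H3K9 methylation, Rpl21, a ribosomal protein, and Fam126b. The Cd80 promoter (chr16:38458623-38459067) had no deposited peak in DM no dox replicate 2, 10.3 and 14.5 in replicates 3 and 4, and 27.9, 19.9 and 16.6 in DM +dox, and of the 5 it alone held CAGCTG. Its GM peaks were 5.84 to 18.4. The Exoc7 promoter also lacked a peak in DM no dox replicate 2, so the means of both rest on 5 libraries. The 4 promoters other than that of Cd80 had GM peaks of 6.98 to 18.4.

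The dox arm in which the gained regions were stronger was tested in DM by limma on log2 fold enrichment, quantile normalized over the 6 DM libraries. All 17243 union regions with a deposited peak in all 6 entered the fit, 387 gained regions among them. The gained regions left out lacked a peak in DM no dox only. DM no dox replicates 2 to 4 had a deposited peak at 395, 420 and 428 gained regions, and each DM +dox library at all 428. DM no dox replicates 2 and 3 also had the shortest lists of the 6, 23690 and 24181 peaks. The comparison of arms below does not cover the regions left out. Without a block, 0 regions were called at an adjusted p under 0.05 (0% of those tested), and 0 of the 387 gained ones. At an unadjusted p under 0.05, 880 regions were higher (5.1%) and 714 lower (4.14%) with dox. Of the gained regions 29 were higher (7.49%) and 12 lower (3.1%). The lowest adjusted p of a gained region was 0.346. The labels do not say whether same-numbered DM libraries belong together, and their pairing was read from correlations in these same data. With the replicate as a block, 211 regions were called higher with dox (1.22%) and 110 lower (0.638%). These calls depend on that pairing. Among the gained regions 4 were called higher (1.03%) and 1 lower (0.258%), close to these background shares.

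Over all gained regions the difference between the arms was small. The median of DM +dox minus DM no dox was 0.0358 on the log2 scale, with quartiles of −0.09 and 0.20, against −0.0017 over all regions tested. It was positive at 223 of 387 gained regions (57.6%) and at 49.6% of all, a count over regions that share the same 6 libraries. Within replicates 2, 3 and 4 the median was 0.0599, 0.0446 and 0.0205 for gained regions and −0.0114, −0.0107 and −0.00152 for all, so the sign was the same in each of the 3 pairs. All 3 pairs were higher with dox at 84 gained regions (21.7%, against 17.6% of all) and lower at 46 (11.9%, against 19.7%). The 2 arms did not overlap, with dox above, at 38 gained regions (9.82%), beside 6.2% of all regions tested, and with dox below at 24 (6.2%), beside 7.83%. The counts of gained regions depended on the measure, and so did those of all regions tested. With the summit pileup over background as the measure, 33 of 387 gained regions had dox above and 33 below. Over all 17243 regions tested these counts were 1008 and 1152. At an unadjusted p under 0.05 by limma, 23 gained regions were higher and 22 lower, beside 553 and 747 of all. The median by this measure was 0.0358 against 0.0155 for all. With −log10 p as the measure, 37 gained regions had dox above and 29 below, beside 1034 and 1145 of all. At an unadjusted p under 0.05, 19 gained regions were higher and 19 lower, beside 570 and 722 of all. When the pileup was centred on the library median, an alternative added after the data were seen, the median over gained regions was 0.0022 against 0.0032 for all.

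**Figure D5:**
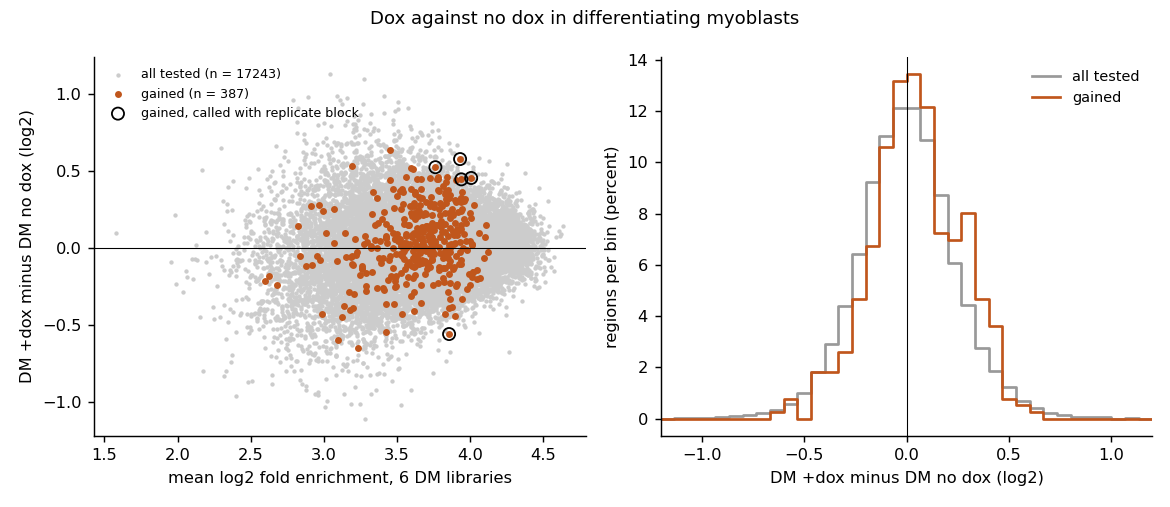
Left, DM +dox minus DM no dox (y axis, log2) against mean log2 fold enrichment over the 6 DM libraries (x axis) for all 17243 regions tested (grey) and 387 gained regions (orange), with circles around the 5 gained regions called with replicate as a block. Right, the same differences as the percent of regions in each bin. The gained regions have a median of 0.0358, against −0.0017 for all.

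The median difference between the DM arms in log2 fold enrichment was 0.0477 at the 114 tested members with CAGCTG and 0.0347 at the 273 without it. Over all regions tested it was 0.0145 with the element and −0.00468 without. Distal gained regions had 0.0263 and those within 1 kb of a start site 0.0499, beside −0.0244 and 0.0167 over all regions. The differences between these subsets were not tested.

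The 5 gained regions called with the block were the following. In an intron of Mast2, a microtubule-associated kinase (chr4:116371688-116372036), normalized log2 fold enrichment was 3.72, 3.32 and 3.89 in DM no dox replicates 2 to 4 and 4.52, 4.06 and 4.08 in DM +dox. The arms did not overlap, and the difference was 0.58 ± 0.13 (SE, 3 libraries an arm; limma with block, adjusted p = 0.00909, and 0.346 without block). A region 8.86 kb upstream of Gm42372 (chr7:16974082-16974439) had 3.64, 3.72 and 3.98 without dox and 4.23, 4.29 and 4.20 with it, a difference of 0.46 ± 0.12 (adjusted p = 0.0311). Both held CAGCTG and TGCCAA.

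The other 2 regions called higher with dox were intergenic and only just passed. The region 58.3 kb upstream of Arhgap32, a GTPase-activating protein (chr9:32057591-32058199), had 3.83, 3.63 and 3.70 without dox and 4.04, 4.26 and 4.20 with it, and an adjusted p of 0.0499 by limma with the block. The region whose nearest coding gene, Efna5, is 1292 kb away (chr17:61589265-61589834) had 3.69, 2.84 and 3.97 against 4.03, 3.9 and 4.15, an adjusted p of 0.0492, and arms that overlapped. The region called lower lay 13.8 kb upstream of Prl7d1, a gene of the prolactin family (chr13:27730216-27730811). It had 4.09, 4.02 and 4.30 without dox and 3.20, 3.67 and 3.86 with it, a difference of −0.56 ± 0.14 and an adjusted p of 0.0198.

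Of the largest differences that were not called, the promoter region of Brwd3 had 0.64 ± 0.25, Tmco4 0.53 ± 0.28 and the most distant Farp1 region 0.52 ± 0.20. On the lower side stood a region in an intron of Myh9, non-muscle myosin heavy chain (−0.65 ± 0.24). It lay 2.80 kb upstream of the nearest annotated start site of that gene. Also lower were one near Pmm1 (−0.60 ± 0.23), one near Rab11fip4 (−0.54 ± 0.20) and one 28.4 kb from Dusp5, a phosphatase of ERK (−0.44 ± 0.22). The adjusted p values of all these higher and lower regions by limma without block were 0.448 to 0.572. The arms did not overlap at these regions, except at Tmco4.

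In GM, where at most 2 libraries could carry a strong peak, 121 gained regions had it in GM +dox libraries alone, 90 in GM no dox libraries alone and 114 in 1 of each, and 103 in none. The number per library was 59.8 ± 20.0 in GM no dox and 70.5 ± 26.6 in GM +dox (SD, n = 4), ranges that overlap. These counts lie inside the limit set by the rule and are not a measure of dox in GM.

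Promoter accessibility was checked against cell identity. Among the myoblast markers, Myod1 and Chrna1 had a strong peak within 1 kb of the start site in all 14 libraries, and Cdh15 in 3. Myf5, Vcam1, Itga7 and Des had a strong peak in none, and a deposited peak of any strength in 6, 4, 9 and 13 libraries. Of 16 markers of endothelial, haematopoietic, adipocyte and epithelial cells, only Krt8 had a strong peak, in 4 libraries. A deposited peak of any strength was present at Krt8 in 10 libraries, at Pecam1 in 8 and at Plin1 in 4. Tek, Cd68 and Cidec had one in 1 library each, and the other markers of these cell types in none. By peaks of any strength Pecam1 thus stood above the myoblast markers Myf5 and Vcam1. Background coverage was 0.339 to 1.13 fragments per base in the 14 libraries.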

How the data were processed

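ATAC-seq peak lists of 16 libraries were read, of which 14 were used, as the study left out replicate 1 of both DM groups. Per the study's methods and the submitters' processing notes, the authors aligned reads to mm10 with nf-core/atacseq, dropped blacklisted regions and ran the MACS2 narrow peak caller on every library by itself. The deposited columns were a score, a fold enrichment (ratio) over local background, and the −log10 of p and of q. The score was not used. No reads or counts were analysed here.

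From each list the 14710 peaks with the highest −log10 p were kept, as many as the shortest kept list holds (7355 in an alternative with shortened lists), and peaks sharing at least 1 bp were merged. The members, gene lists, mirror set and motifs were chosen with earlier results of these data known. Start sites came from GENCODE M21 and sequence from GRCm38. Named regions were the 10 strongest with 6 DM and 0 GM strong peaks, regions near list genes, the 5 highest and 5 lowest dox differences and all calls, the 5 strongest promoters, and genes with 3 or more regions. Motifs were counted on both strands within 100 bp of the summit.

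Dox was tested with limma 3.58.1 (R 4.3.3; trend, two-sided, Benjamini-Hochberg over all regions tested), 3 libraries an arm. The p-values measure the spread between these libraries. Deviations from the group means of same-numbered libraries correlated at 0.398, 0.169 and 0.364 in replicates 2, 3 and 4, so that the numbers were taken to pair the libraries, as a reading of the data and not of the labels. Pileups were solved from fold enrichment and p and were whole at 100% of peaks, with p returned within a relative error of 0.0001. Their lowest background gave the coverage. Both steps were tested on simulated data. Intervals are Wilson 95% intervals and cover counting error only. Alternatives were peak ranking, list length, merging, thresholds, windows, normalization, measure and leaving out each library. A few members and markers are not reported here.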

Additional observations from a re-analysis of the deposited data

Results flagged for a closer look

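DM +dox replicate 1, a library that entered no comparison, had a deposited peak at 48.6% of the gained regions. This was above the highest share of gained regions with a strong peak in a GM library, 24.8%, but the rule that chose the regions keeps the GM shares low, so that this order carries no weight. The same library covered 44.9% of all union regions, inside the interval of 43.9 to 53.3 around the gained share. The other left-out library, DM no dox replicate 1, covered 1.87% of the gained regions and 4.77% of all union regions. In 8 checks of GM groups of 4 libraries for a value far from the rest, none stood out.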

How the results depend on the processing

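The distal share and the CAGCTG share of gained regions were above those of all union regions in all 20 and all 22 alternatives, by as little as 61.5% against 60.5% for the distal share without GM no dox replicate 4. The number of gained regions was 201 with shortened lists, 37 with a strong peak in all 6 DM and no GM library, and 487 to 673 with 1 library left out. The distal share was 58.7% with shortened lists (52.9% of all union regions), 90.6% with all deposited peaks (77.6%), 86.5% at 6 DM and no GM libraries, 51.6% at over 5 kb (45.1%), and 61.5% to 73.8% with 1 library left out. The CAGCTG share was 43.2% at 6 DM and no GM libraries, 18.2% within 50 bp of the summit (10.6%), 37.6% within 150 bp (24.7%), 36.7% over regions beyond 1 kb alone (22.8%), and 26.6% to 33.4% with 1 library left out or peaks ranked by fold enrichment.

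For dox in DM, limma called 321 regions with the replicate block, 5 of them gained, and 0 in the other 12 alternatives. The median difference over gained regions was 0.0778 where a strong peak was required in all 6 libraries, 0.0022 with pileup centred on the library median, and 0.0126 to 0.0645 with 1 library left out. The cause of these shifts was not tested. Depth was known only as background coverage, and a peak missing from a short list does not show closed chromatin.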

Other observations

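Both gained regions with Vldlr, a reelin receptor, as the nearest coding gene were lower with dox in DM, each by −0.43 on the normalized log2 scale. They lay 42.5 kb upstream and 21.6 kb downstream of its start site, neither was called, and the gene was chosen after its values were seen.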
